A study of Homo sapiens with 6 samples.

Results

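Peaks that lie outside chromosomes 1 to 22, X and Y were described in a study of where PRMT5 and METTL3 sit on chromatin in 2 human prostate cancer cell lines. They were found by the name of the sequence alone, which had to be the mitochondrial genome (MT) or a contig whose name starts with GL or KI, and no measured value was used. There were 237 such peaks among 10504 in 4 peak lists. The lists are METTL3 in LNCaP cells (26 of 199), PRMT5 in LNCaP cells (104 of 1084), METTL3 in PC3 cells (47 of 7500) and PRMT5 in PC3 cells (60 of 1721).

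LNCaP is an androgen-responsive established line and PC3 an androgen-independent one, both kept in the same serum medium with no treatment named in the labels. METTL3 is the catalytic subunit of the complex that writes N6-methyladenosine on RNA, and PRMT5 is an arginine methyltransferase of histones and splicing proteins. Each line gave 1 library per antibody (METTL3 from Abcam, PRMT5 from Active Motif) and 1 control library, titled IgG with a secondary antibody in its antibody field. All 6 libraries were made from 100000 cells with 16 PCR cycles by an in-situ method, in which a protein G-Tn5 transposase tags DNA where the antibody is bound. By the names the authors gave the peaks, each list was set against the IgG library of the same line, so METTL3 and PRMT5 share 1 control within a line.

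The mitochondrial genome is a small circle present in many copies per cell, packed without histones, and its genes are transcribed as long RNAs from a noncoding control region. Unplaced and unlocalised contigs are stretches of human sequence that the assembly could not set in a chromosome, often because they hold satellite or other repeats. Some carry ribosomal RNA genes, which exist in many near-identical copies. Reads from such places can fit more than 1 position, and the sources used here do not say how the authors' mapping treated them. Sequencing depth is unknown, and with 1 library per group there was no replicate spread and no test between groups. The 95% intervals given with shares are binomial (exact, Clopper-Pearson) and reflect counting error alone.

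MT and contigs took a larger share of the LNCaP lists than of the PC3 lists. The share was 13.1% of LNCaP METTL3 peaks (8.72 to 18.6), 9.59% of LNCaP PRMT5 peaks (7.91 to 11.5), 0.627% of PC3 METTL3 peaks (0.461 to 0.832) and 3.49% of PC3 PRMT5 peaks (2.67 to 4.47). These intervals count peaks within 1 library per group, so they do not compare the lines. A share depends on how deep a list was called, and the lists differ in length. When each list was cut to its 199 peaks of highest −log10 q, the 4 shares were 13.1%, 21.1%, 7.04% and 15.1% in the same order. The PC3 PRMT5 share was then above the LNCaP METTL3 share.

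MT held 3 LNCaP METTL3 peaks and 8 LNCaP PRMT5 peaks, and neither PC3 list had one there. The contigs held 23, 96, 47 and 60 peaks, on 8, 19, 32 and 15 contigs, with METTL3 before PRMT5 and LNCaP before PC3. In all, 43 contigs had a peak, 8 with GL names and 35 with KI names. Of these, 24 had peaks in 1 list, 10 in 2 lists, 6 in 3 lists and 3 in all 4 lists. The contigs seen in 1 list came mostly from PC3 METTL3, with 17, against 5 from LNCaP PRMT5, 2 from PC3 PRMT5 and 0 from LNCaP METTL3. The contigs in all 4 lists were GL000225.1, GL000216.2 and KI270442.1, and those in 3 lists were KI270438.1, KI270333.1, KI270719.1, KI270336.1, KI270730.1 and KI270754.1. GL000225.1 held the most peaks of LNCaP PRMT5 (47) and of PC3 PRMT5 (24), it tied with GL000216.2 in LNCaP METTL3 (7 each), and KI270719.1 led PC3 METTL3 (4).

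**Figure D1:**
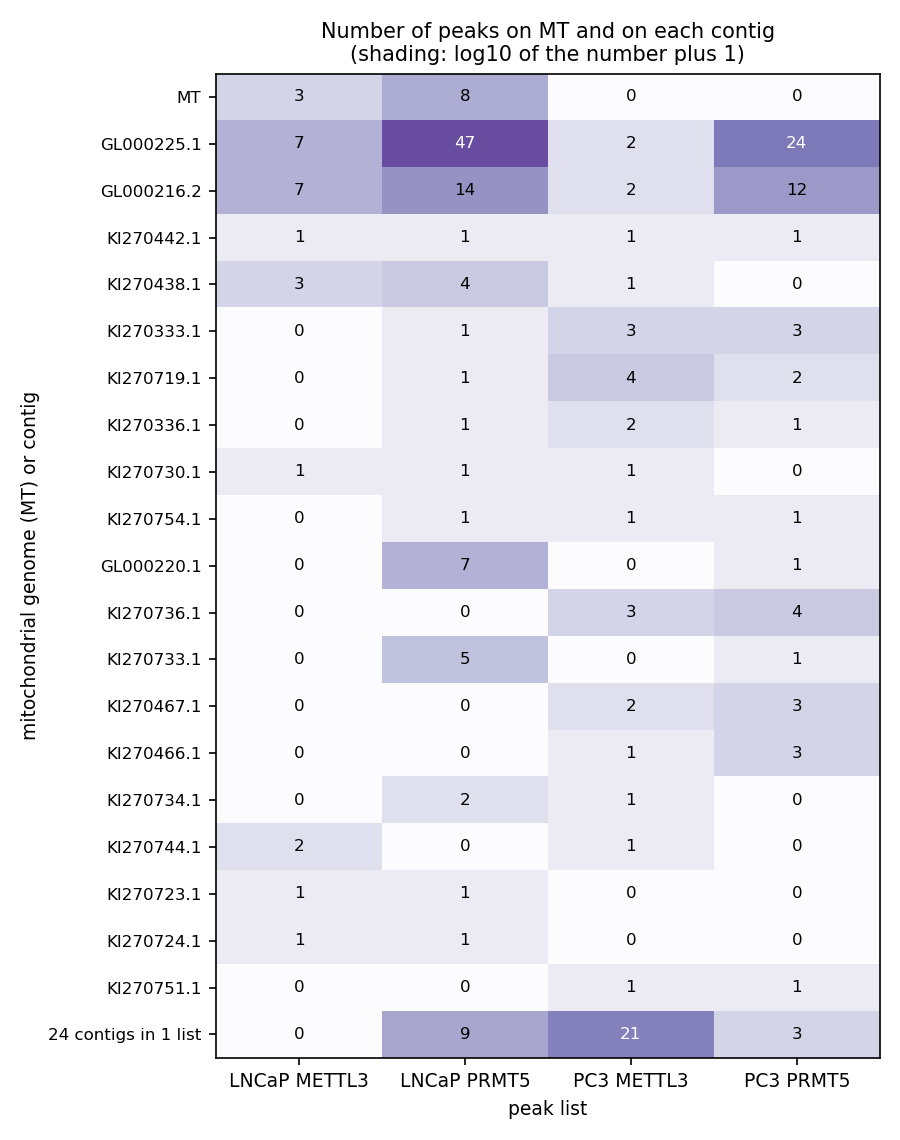
Number of peaks on MT and on each contig (rows) in each of the 4 peak lists (columns), with 24 contigs found in 1 list summed in the last row. MT has 3 and 8 peaks in the LNCaP lists and 0 in the PC3 lists, GL000225.1 has 47 in LNCaP PRMT5 and 24 in PC3 PRMT5, and the last row has 21 in PC3 METTL3.

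These peaks had a high significance and, in 3 of the 4 lists, a low fold. The fold is the authors' caller's ratio of a peak over the control, and it and the q values are used here only within a list. The median fold was 2.21 for MT and contigs in LNCaP METTL3, against 6.22 on the chromosomes of that list. It was 3.86 against 6.56 in LNCaP PRMT5, 4.70 against 5.10 in PC3 METTL3 and 2.94 against 5.89 in PC3 PRMT5. For PC3 METTL3 the 95% interval of the median, 3.79 to 5.16 by binomial ranks of the peaks, includes the chromosome median. The median −log10 q was 17.7 against 5.59, 16.9 against 6.29, 5.79 against 3.57 and 14.5 against 4.92 in the same order of lists. A fold of at least 5 was reached by 2 of 26 LNCaP METTL3 peaks on MT and contigs, 7.69%, where 64.8% of the whole list reached it. It was reached by 31 of 104 in LNCaP PRMT5, 29.8%, where 77.1% of the list did. In PC3 METTL3 19 of 47 reached it, 40.4%, where 59.0% of the list did, and in PC3 PRMT5 7 of 60, 11.7%, where 73.3% did. A fold under 2 was held by 46.2%, 14.4%, 6.38% and 6.67% of the peaks on MT and contigs, against 6.36%, 1.02%, 0.134% and 0.903% of those on the chromosomes of the same lists. Of the 20 peaks of highest −log10 q, 8 in LNCaP METTL3, 3 in LNCaP PRMT5, 10 in PC3 METTL3 and 0 in PC3 PRMT5 were on MT or a contig, whereas 1, 0, 2 and 0 of the 20 of highest fold were.

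**Figure D2:**
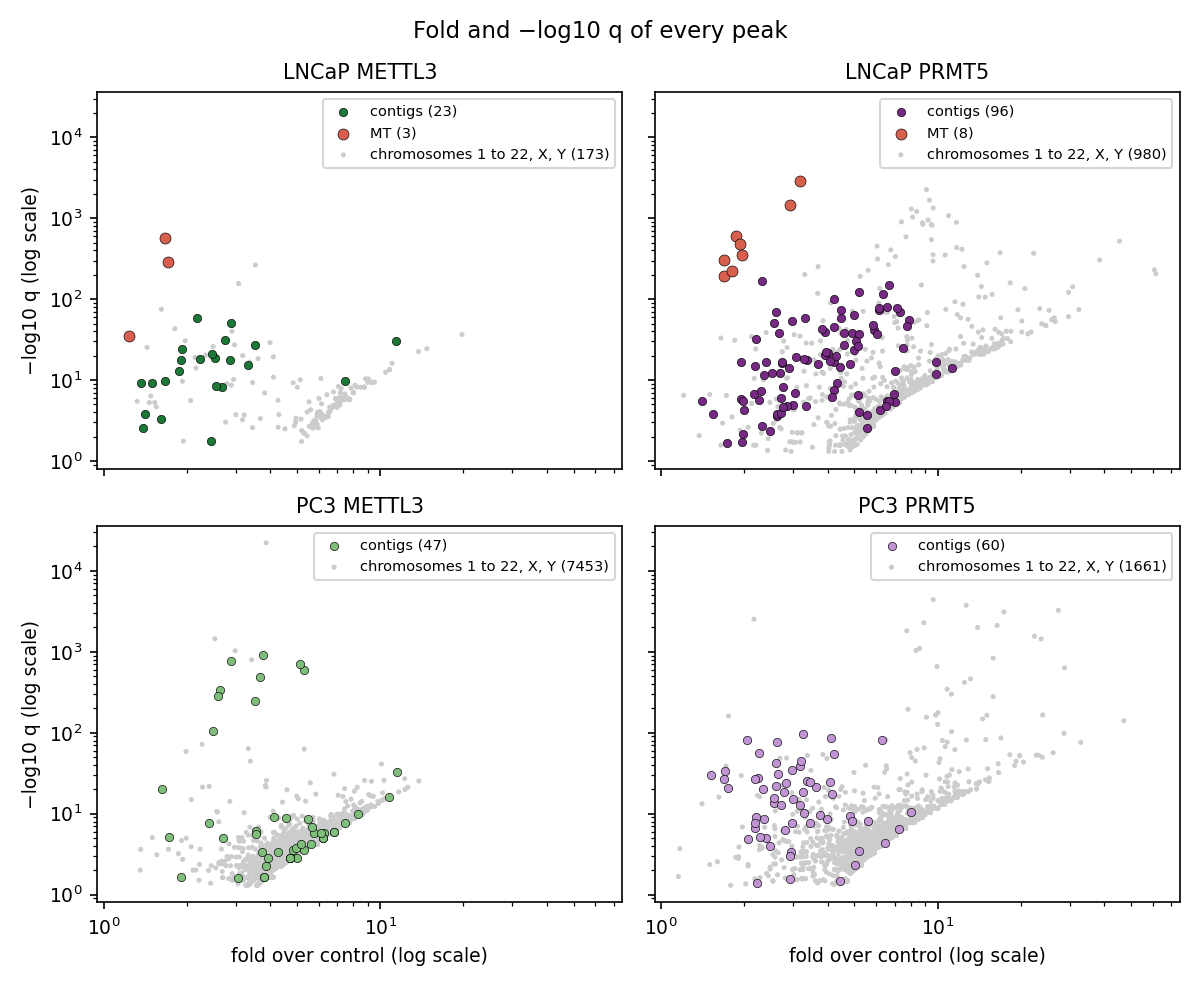
Fold over control (x, log scale) and −log10 q (y, log scale) of every peak, 1 panel per list, with MT in red, contigs in colour and chromosomes in grey. MT peaks lie at the upper left in both LNCaP panels (fold 1.24 to 3.17, −log10 q 35.4 to 2909), and 9 PC3 METTL3 peaks on 5 of the short contigs lie near the top of their panel (−log10 q 106 to 918, ranks 4 and 6 to 13).

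On the mitochondrial genome the LNCaP PRMT5 peaks ran along almost the whole circle. The 8 peaks spanned positions 11 to 1946, 2244 to 3039, 3294 to 4167, 4874 to 5454, 5896 to 7223, 7635 to 9727, 10086 to 12098 and 12250 to 16565, with the folds 1.87, 1.69, 1.96, 1.80, 1.68, 1.93, 2.92 and 3.17. They covered 13937 bp, 84.2% of the stretch from the first to the last covered base, and the 7 gaps were 151 to 706 bp long. The fold was between 1.68 and 1.96 in the first 6 peaks by position, and it was higher in the 2 that follow. The last of them, 4316 bp wide, had a −log10 q of 2909, the highest of all 1084 peaks of the list, although its fold ranked 989. The peak at 10086 to 12098 ranked 4 by −log10 q, at 1459. The genome is a circle and the caller works on a line, so the first and last peaks are 2 entries on either side of its origin.

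By the RefSeq gene table, LNCaP PRMT5 peaks touched 25 of the 37 mitochondrial genes. All 13 protein-coding genes, which encode subunits of the respiratory chain and ATP synthase, were touched, and 6 of them were covered from end to end. These were ATP8 and ATP6, of ATP synthase, ND4L, ND5 and ND6, of complex I, and CYTB, of complex III. ND4 was covered over 97.2% of its length, COX2 92.8%, ND3 92.2%, ND1 90.1%, COX1 85.6%, COX3 66.5% and ND2, the lowest, 55.8%. Of the 2 ribosomal RNA genes, RNR1 was fully covered and RNR2 over 68.8%. Of the 22 tRNA genes, which are 59 to 75 bp long where the other genes are 207 to 1812 bp, 8 were fully covered and 12 had no covered base. A short gene is less likely to be touched, and no test was made between gene types. The untouched tRNA genes lay in the gaps, with TRNI, TRNQ and TRNM in the widest gap (4168 to 4873) and TRNW, TRNA, TRNN, TRNC and TRNY in the next widest (5455 to 5895). TRNS1, TRND, TRNG and TRNH were the others.

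The LNCaP METTL3 peaks on MT were few and narrow, and 2 of the 3 lay in the noncoding control region. They spanned positions 112 to 377 (fold 1.71), 14107 to 14329 (fold 1.24) and 16103 to 16533 (fold 1.67), 920 bp in all. The last and the first ranked 1 and 2 of 199 by −log10 q, at 563 and 289, and the lowest, at 35.4, ranked 11. By fold the same 3 peaks ranked 185, 184 and 199, the last being the lowest fold of the list. The control region, taken here as the part with no gene between the end of TRNP (16023) and the start of TRNF (577), held both of the strongest. The remaining peak, at 14107 to 14329, covered 181 bp of ND6, 34.5% of that complex I gene, and 42 bp of ND5, and the 35 other genes were untouched. The strongest METTL3 summit, at position 16336, was 1 bp from the strongest PRMT5 summit of LNCaP, at 16337. That place is 313 bp past the end of TRNP. The 2 lists share a control library, and the part of that control in the match was not tested.

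**Figure D3:**
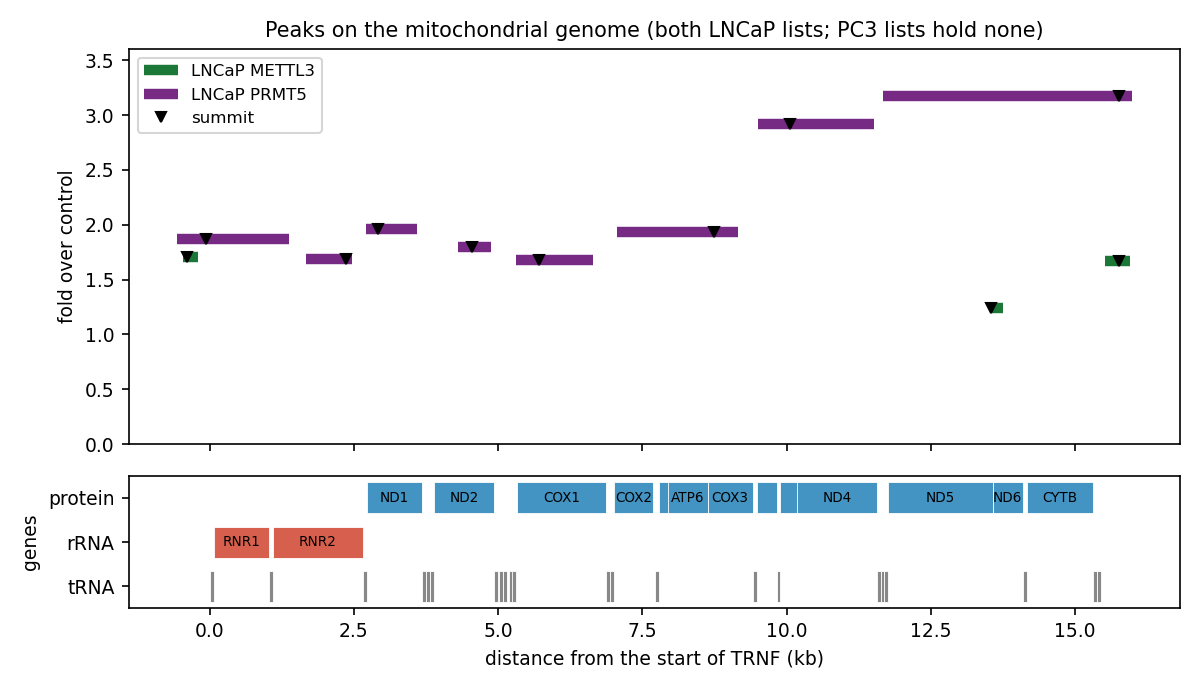
Peaks on the mitochondrial genome as bars by distance from the start of TRNF (x, kb) and fold over control (y), with summits as triangles, above the protein-coding, rRNA and tRNA genes. The LNCaP PRMT5 bars cover 13937 bp with folds of 1.68 to 3.17, the LNCaP METTL3 bars 920 bp with folds of 1.24 to 1.71, and the strongest summits of both lists coincide at the right.

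The nuclear copy of mitochondrial sequence on chromosome 1 had peaks in both LNCaP lists, and it also had peaks in PC3 PRMT5. That segment, positions 629062 to 634922, carries the pseudogenes MTND1P23, MTND2P28, MTCO1P12, MTCO2P12, MTATP8P1, MTATP6P1 and MTCO3P12, copies of the genes from ND1 to COX3. It held 4 LNCaP METTL3 peaks (fold 1.48 to 3.08), 7 LNCaP PRMT5 peaks (3.31 to 9.53), 0 PC3 METTL3 peaks and 3 PC3 PRMT5 peaks (1.16 to 1.75). They covered 1036, 4291, 0 and 668 bp. The LNCaP PRMT5 folds on the segment were all above those of the 8 MT peaks of the same list (1.68 to 3.17). The LNCaP PRMT5 peak over MTATP8P1 and MTATP6P1, at positions 633730 to 634111, had a −log10 q of 2253, second in the list to the last MT peak. PC3 PRMT5 had its nuclear copy peaks at −log10 q up to 161 and no peak on MT. Reads of MT and of its copy can be alike, and how reads were divided between them was not tested.

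GL000225.1 and GL000216.2 held 53.8% of LNCaP METTL3, 58.7% of LNCaP PRMT5, 8.51% of PC3 METTL3 and 60.0% of PC3 PRMT5 peaks on MT and contigs. On GL000225.1, the 47 LNCaP PRMT5 peaks ran from position 14 to 140909 with a median of 2396.5 bp between neighbouring summits and a median width of 139 bp. The 24 PC3 PRMT5 peaks ran from 13864 to 131810 with 3911 bp between summits, and the 7 LNCaP METTL3 peaks from 45980 to 111675. The median fold on the contig was 1.91 (1.39 to 3.52) among the METTL3 and 3.70 (1.73 to 7.89) among the PRMT5 peaks of LNCaP, and it was 2.74 (2.07 to 6.28) among the PRMT5 peaks of PC3. The 2 PC3 METTL3 peaks, with folds of 1.72 and 3.92, lay at positions 125652 to 125973 and 143556 to 143943.

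Part of the places recurred on this contig. Of the 47 PRMT5 peaks of LNCaP, 19 met one of PC3 PRMT5, where 30.3% of the whole LNCaP PRMT5 list did. They met 19 of the 24 PC3 PRMT5 peaks, where 18.8% of the whole PC3 PRMT5 list met LNCaP PRMT5, and the summits were a median of 14 bp apart and at most 63 bp. Of the 7 LNCaP METTL3 peaks, 6 overlapped an LNCaP PRMT5 peak and 5 a PC3 PRMT5 peak, where 48.2% and 23.1% of the whole list did. Neither PC3 METTL3 peak overlapped a peak of another list, and at most 2.12% of the whole PC3 METTL3 list met any given list. The region at 85545 to 85795 had the highest fold of GL000225.1 in LNCaP METTL3 (3.52) and PC3 PRMT5 (6.28), and a fold of 7.11 in LNCaP PRMT5. The region at 45941 to 46424 had the highest fold in LNCaP PRMT5 (7.89), with 2.87 in LNCaP METTL3 and 2.71 in PC3 PRMT5. Regions at 50837 to 51025 (6.15 in LNCaP PRMT5 and 4.22 in PC3 PRMT5) and 82070 to 82321 (7.76 and 4.14) were shared by the PRMT5 lists and by neither METTL3 list. The LNCaP PRMT5 peak at 6120 to 6262, with a fold of 7.52, had no partner in another list.

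On GL000216.2 the 7 LNCaP METTL3 peaks ran from position 142383 to 174018. Of the 14 LNCaP PRMT5 peaks, 13 lay in that stretch, which the METTL3 peaks set, the exception being a PRMT5 peak at 88634 to 88743 with a fold of 6.99. In PC3, 8 of 12 PRMT5 peaks overlapped that stretch. All 7 LNCaP METTL3 peaks overlapped an LNCaP PRMT5 peak, with summits at most 35 bp apart, and 5 overlapped a PC3 PRMT5 peak. Of the whole LNCaP METTL3 list, 48.2% and 23.1% did. Of the 12 PC3 PRMT5 peaks, 6 overlapped an LNCaP PRMT5 peak, where 18.8% of the whole list did. The region at 168648 to 168856 had the highest LNCaP METTL3 fold of the contig (2.88), with 6.34 in LNCaP PRMT5 and 2.97 in PC3 PRMT5. The peak at 170200 to 170333 had the highest LNCaP PRMT5 fold (7.29), with 3.64 in PC3 PRMT5, and the region at 167749 to 168045 had 1.87 in LNCaP METTL3, 4.23 in LNCaP PRMT5 and 4.10 in PC3 PRMT5. Of the other regions of those 3 lists, the one at 164322 to 164602 had 2.52, 4.49 and 2.84 in the same order, the one at 173765 to 174018 had 2.46, 4.96 and 3.18, and the one at 142373 to 142634 had 2.23, 1.94 and 3.38. The LNCaP pair alone met at 166683 to 166901, with 2.74 for METTL3 and 6.53 for PRMT5, and at 149472 to 149746, with 2.18 and 2.21. The second of these had the highest METTL3 −log10 q of the contig, 58.3. The highest PC3 PRMT5 fold, 5.58, was at 176364 to 176576, where no other list had a peak. The 2 PC3 METTL3 peaks, at 10108 to 10399 (fold 3.72) and 104798 to 105089 (4.86), lay outside this stretch.

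**Figure D4:**
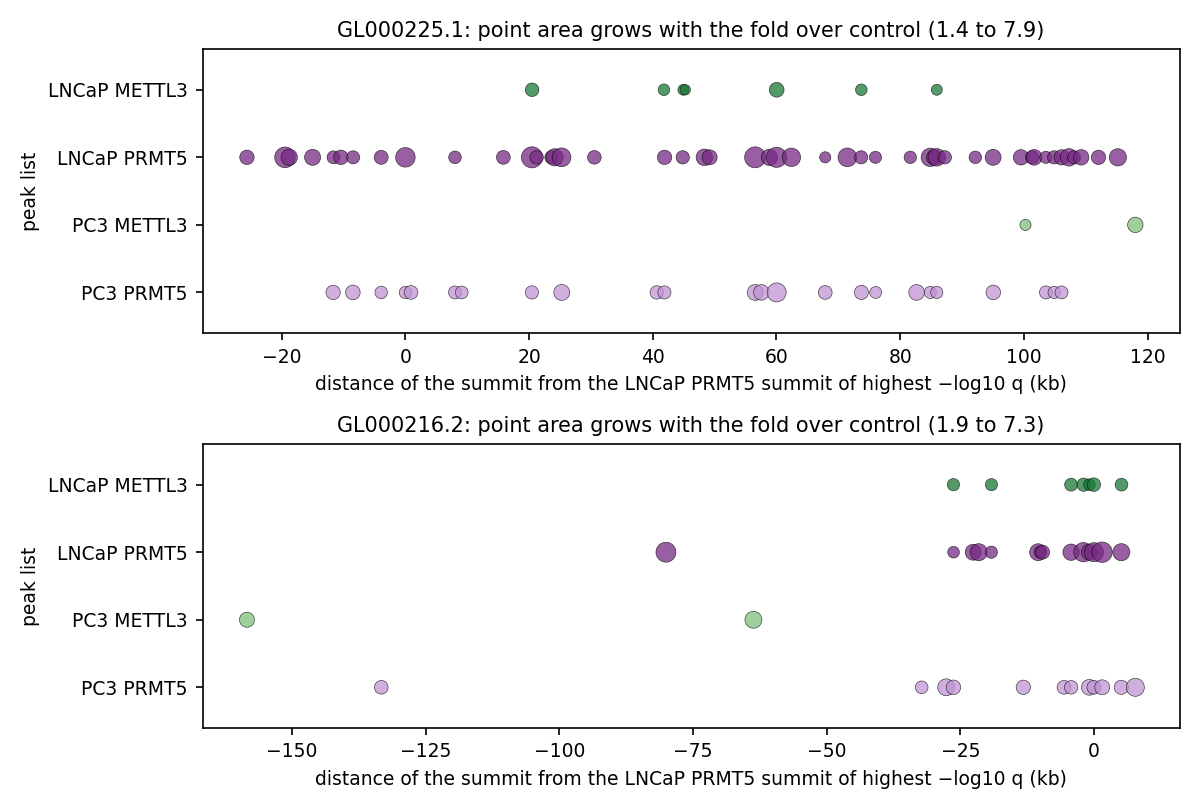
Summits on GL000225.1 (top) and GL000216.2 (bottom) by distance in kb from the LNCaP PRMT5 summit of highest −log10 q on that contig (x), 1 line of points per list (y), with point area growing with the fold. Points of LNCaP METTL3, LNCaP PRMT5 and PC3 PRMT5 line up at 5 regions of each contig, and the 2 PC3 METTL3 points of each contig stand apart from them.

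A further pair of contigs, GL000220.1 and KI270733.1, carried peaks of the PRMT5 lists and of neither METTL3 list. In general knowledge of the GRCh38 assembly they hold the ribosomal RNA units RNA45SN5 and RNA45SN4. The RefSeq table gives the position of these units (105424 to 118780 and 122273 to 135645) without naming the contig, so the placement rests on that knowledge. The 45S transcript is cut into the 18S, 5.8S and 28S ribosomal RNAs, and a long spacer separates it from the next unit. GL000220.1 held 7 LNCaP PRMT5 peaks (fold 1.96 to 4.0) and 1 PC3 PRMT5 peak (3.17), and KI270733.1 held 5 (2.32 to 4.6) and 1 (2.81). None lay in the 45S transcript. All had their summits beyond its 28S end, at 2.41 to 26.0 kb for LNCaP PRMT5 on GL000220.1 and at 3.86 to 27.7 kb on KI270733.1. The PC3 PRMT5 peaks were at 26.1 and 23.5 kb, and each overlapped an LNCaP PRMT5 peak, with summits 53 and 156 bp apart. Of the whole PC3 PRMT5 list, 18.8% overlapped LNCaP PRMT5.

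Some distances were near each other in these units and in RNA45SN1, RNA45SN2 and RNA45SN3, which the table places on chromosome 21, and others were not. The nearest LNCaP PRMT5 summit past the end was at 2.41 kb for RNA45SN5, 3.86 kb for RNA45SN4, 3.16 kb for RNA45SN1, 3.35 kb for RNA45SN2 and 3.27 kb for RNA45SN3. It had the highest fold of its contig on GL000220.1 (4.0) and KI270733.1 (4.6). Another summit lay at 22.6, 23.7, 23.3, 22.9 and 22.9 kb in the same order of units. A summit at 18.7, 19.9, 19.5 and 19.1 kb was found in the first 4 of these units and not in RNA45SN3. These distances were set side by side after the values were seen, with no tolerance fixed. The chromosome 21 units also had a summit at 4.75, 4.94 and 4.79 kb, whereas RNA45SN5 had none between 2.41 and 6.61 kb and RNA45SN4 none between 3.86 and 9.50 kb. The remaining LNCaP PRMT5 summits were at 6.61, 9.77, 25.5 and 26.0 kb for RNA45SN5, 9.50 and 27.7 kb for RNA45SN4, 10.5 kb for RNA45SN1, 12.7 kb for RNA45SN2 and 24.5 kb for RNA45SN3. Over the 35 kb past each end, the chromosome 21 units had 14 LNCaP PRMT5 peaks and 2 PC3 PRMT5 peaks, again none in the transcript. The units are near-identical, so reads may belong to any of them, and the peaks of different units are not independent.

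**Figure D5:**
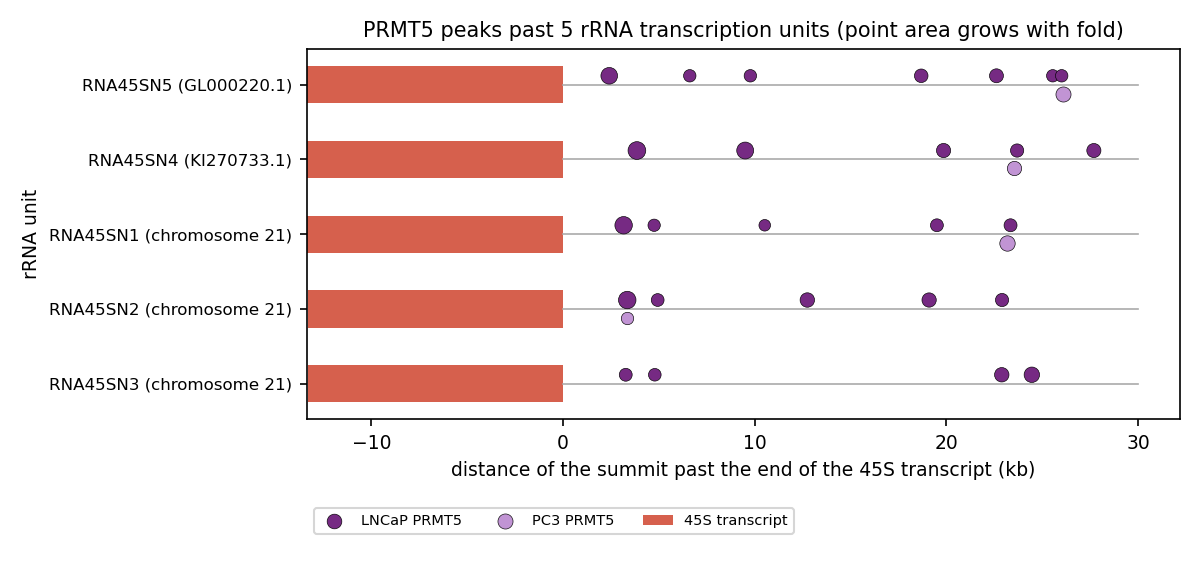
PRMT5 summits by distance past the end of the 45S transcript (x, kb) for 5 ribosomal RNA units (y), with the transcript as a red bar and point area growing with the fold. LNCaP PRMT5 has a summit 2.41 to 3.86 kb past the end in each of the 5 units and another at 22.6 to 23.7 kb, and PC3 PRMT5 has 4 summits in all.

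The PC3 METTL3 list had its contig peaks of highest −log10 q on KI270333.1, KI270336.1, KI270337.1, KI270466.1 and KI270467.1. They were singled out after their values were seen and are called the 5 short contigs here. Short span did not set them apart. On KI270303.1, KI270310.1, KI270391.1 and KI270544.1, where peaks ended by position 1170, PC3 METTL3 had a −log10 q of 7.79 to 32.7. No list had a peak on the 5 short contigs that ended beyond position 3918. The 9 PC3 METTL3 peaks on them ranked 4 and 6 to 13 of 7500 by −log10 q, from 106 to 918, with folds of 2.48 to 5.30. Cover was measured up to the last peak end of any list, which on all 5 was the end of a PC3 METTL3 peak. It was 100% on KI270337.1 and KI270466.1, 88.0% on KI270333.1, 84.4% on KI270336.1 and 76.5% on KI270467.1. Contig lengths were not used, and the 100% was fixed because 1 peak started at position 1 and set the end. PC3 PRMT5 had 10 peaks on these contigs, 164 to 1015 bp wide, with folds of 1.52 to 3.27 and −log10 q up to 95.9. All 10 overlapped a PC3 METTL3 peak, where 9.59% of the whole PC3 PRMT5 list did. METTL3 peaks cover most of each stretch up to the last peak end, so an overlap there tells little. PC3 PRMT5 had none on KI270337.1. LNCaP PRMT5 had 2, on KI270333.1 (fold 2.61) and KI270336.1 (2.32), and LNCaP METTL3 had 0. Both LNCaP peaks overlapped peaks of both PC3 lists, at 1988 to 2697 and at 579 to 1026. Of the whole LNCaP PRMT5 list, 4.15% met PC3 METTL3 and 30.3% met PC3 PRMT5.

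The other 38 PC3 METTL3 peaks were scattered over 27 contigs, and 4 of them overlapped a peak of another list. Of the whole PC3 METTL3 list, 2.12% met PC3 PRMT5, 0.587% LNCaP PRMT5 and 0.213% LNCaP METTL3. The 38 peaks had a median fold of 4.78 (1.62 to 11.5), and their −log10 q reached 32.7. The highest folds were on KI270544.1 (positions 57 to 577, fold 11.5, rank 6 of 7500), KI270391.1 (303 to 665, 10.8, rank 7), KI270732.1 (2092 to 2385, 8.34) and KI270717.1 (12763 to 13223, 7.43). They were followed by a pair on KI270719.1 (147541 to 148203 and 151987 to 152470, both 6.83), by KI270519.1 (136780 to 137210, 6.24), and by KI270706.1 (138005 to 138296) and GL000009.2 (3469 to 3805), tied at 6.22. None of these overlapped a peak of another list, and neither did most of the whole PC3 METTL3 list. The smallest width of the list, 292 bp, was held by 27.7% of PC3 METTL3 contig peaks and by 72.9% of its chromosome peaks.

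In LNCaP the 2 METTL3 and the 3 PRMT5 contig peaks of highest fold lay outside GL000225.1 and GL000216.2, and the other 5 of the 8 highest PRMT5 folds lay on them. The highest METTL3 peak was on KI270723.1, at 35212 to 35455, with a fold of 11.4, rank 4 of the 199 peaks. LNCaP PRMT5 had a peak of fold 9.87 at the same place, with the summits 21 bp apart. The next was on KI270730.1, at 108833 to 109084, with a fold of 7.44 for METTL3 and 6.67 for PRMT5. The highest PRMT5 contig peaks were on KI270755.1 (13918 to 14224, fold 11.3) and GL000218.1 (97538 to 97677, 9.89), where no other list had a peak. By fold they ranked 123 and 163 of 1084. METTL3 peaks on KI270744.1, at 119686 to 119983 (fold 3.33) and 120740 to 121036 (2.56), were not matched by PRMT5, whereas those on KI270724.1 (2.69 for METTL3 and 5.14 for PRMT5) were. On KI270438.1 all 3 METTL3 peaks (1.37 to 1.49) overlapped PRMT5 peaks (1.41 to 2.99), where 48.2% of the whole LNCaP METTL3 list did. On KI270442.1 the LNCaP METTL3 peak (391697 to 391961, 2.45) lay within the PRMT5 peak (391650 to 392014, 5.16), and the PC3 peaks lay elsewhere, at 112437 to 112972 for METTL3 (3.06) and 92272 to 92535 for PRMT5 (2.18). The PC3 METTL3 peaks on KI270730.1 (81644 to 81935) and KI270438.1 (1281 to 1735), both of fold 4.70, also lay away from the LNCaP peaks.

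In PC3 the 3 PRMT5 contig peaks of highest fold were on KI270736.1. They had 8.02 at 171278 to 171666, 7.24 at 174071 to 174477 and 6.48 at 173753 to 173916. By fold they ranked 232, 368 and 565 of the 1721 peaks of the list. A further peak on that contig, at 181109 to 181285, had a fold of 4.89, below peaks on GL000225.1, GL000216.2 and KI270719.1. The peaks at 171278 and 181109 overlapped PC3 METTL3 peaks of fold 5.69 and 3.56, and LNCaP had no peak on this contig. On KI270719.1 the region at 168820 to 169266 had a peak in 3 lists, with folds of 6.93 in LNCaP PRMT5, 4.28 in PC3 METTL3 and 5.19 in PC3 PRMT5. PC3 PRMT5 had another peak there, at 163203 to 163427, with a fold of 5.01. On KI270754.1 the PC3 lists overlapped, at 3304 to 3787 for METTL3 (2.70) and 3419 to 3603 for PRMT5 (3.76), and the LNCaP PRMT5 peak, of fold 5.21, lay at 14893 to 15025.

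Peaks of different lists met on MT and contigs in 5 of the 6 pairs of lists. An overlap was counted from 1 bp on. LNCaP METTL3 peaks overlapped LNCaP PRMT5 in 23 of 26, 88.5% (69.8 to 97.6), against 42.2% (34.7 to 49.9) of those on the chromosomes and 48.2% of the whole list. As a share of LNCaP PRMT5 peaks, 22 of 104, 21.2% (13.8 to 30.3), overlapped LNCaP METTL3, against 7.45% (5.88 to 9.28) on the chromosomes and 8.76% of the list. In PC3, 11 of 47 METTL3 peaks, 23.4% (12.3 to 38.0), overlapped PRMT5, against 1.99% (1.68 to 2.33) on the chromosomes and 2.12% of the list. Of the PC3 PRMT5 peaks 14 of 60, 23.3% (13.4 to 36.0), overlapped METTL3, against 9.09% (7.75 to 10.6) on the chromosomes and 9.59% of the list. These 4 shares were higher than those on the chromosomes. The intervals count peaks as independent, whereas overlaps gathered on few contigs, so they are no test of the difference. Of the 23 LNCaP METTL3 overlaps, 7 were on GL000216.2, 6 on GL000225.1 and 3 on MT. LNCaP PRMT5 peaks cover 84.2% of MT between the first and last covered base, so an overlap there tells little. On the contigs alone, 20 of 23 LNCaP METTL3 peaks overlapped LNCaP PRMT5, 87.0% (66.4 to 97.2). The PC3 shares rested in large part on the 5 short contigs, where PC3 METTL3 peaks cover 76.5% to 100% up to the last peak end. Without those contigs, an alternative chosen after the data were seen, 4 of 38 PC3 METTL3 peaks overlapped PRMT5. That is 10.5% (2.94 to 24.8), against 1.99% on the chromosomes. Likewise 4 of 50 PC3 PRMT5 peaks overlapped METTL3, 8.0% (2.22 to 19.2), near the 9.09% on the chromosomes. When an overlap had to take up 50% of both peaks, the 11 PC3 METTL3 peaks became 2. METTL3 and PRMT5 share a control library within a line, and the part of that library in these overlaps was not tested.

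Between the lines, 30 PRMT5 peaks of each list met. They made up 28.8% of the 104 LNCaP PRMT5 peaks on MT and contigs (20.4 to 38.6), near the 30.4% on the chromosomes (27.5 to 33.4) and the 30.3% of the list. They made up 50.0% of the 60 PC3 PRMT5 peaks (36.8 to 63.2), against 17.7% on the chromosomes (15.9 to 19.6) and 18.8% of the list. The 30 pairs of summits were a median of 19 bp apart, and 27 pairs were within 50 bp. METTL3 peaks of the lines met nowhere on MT or contigs, in 0 of 26 LNCaP METTL3 peaks (0 to 13.2%) and 0 of 47 PC3 METTL3 peaks (0 to 7.55%). On the chromosomes 9.25% of LNCaP METTL3 peaks (5.38 to 14.6) and 0.215% of PC3 METTL3 peaks (0.123 to 0.348) met the other line, and 8.04% and 0.213% of the whole lists, so the intervals overlapped.

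Lists that differ in line and in antibody, and so in control too, also met. LNCaP METTL3 overlapped PC3 PRMT5 in 10 of 26 peaks, 38.5% (20.2 to 59.4), against 20.8% on the chromosomes (15.0 to 27.6) and 23.1% of the list, all 10 on GL000225.1 and GL000216.2. These were 10 of 60 PC3 PRMT5 peaks, 16.7% (8.29 to 28.5), against 2.23% on the chromosomes (1.57 to 3.06) and 2.73% of the list. LNCaP PRMT5 overlapped PC3 METTL3 in 3 of 104, 2.88% (0.599 to 8.20), against 4.29% on the chromosomes (3.11 to 5.75) and 4.15% of the list. These were 3 of 47 PC3 METTL3 peaks, 6.38% (1.34 to 17.5), against 0.550% on the chromosomes (0.395 to 0.746) and 0.587% of the list. Without the 5 short contigs 1 such overlap was left, 2.63% of PC3 METTL3 peaks (0.0666 to 13.8), and its interval includes the chromosome share.

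Merged over the 4 lists, the 237 peaks formed 170 separate regions. Of these 120 had a peak in 1 list, 37 in 2 lists, 13 in 3 lists and 0 in all 4. The 13 regions of 3 lists fell into 2 kinds. In 10 of them, 5 on GL000225.1 and 5 on GL000216.2, LNCaP METTL3, LNCaP PRMT5 and PC3 PRMT5 met, with folds of 1.66 to 7.89. In the other 3, on KI270333.1, KI270336.1 and KI270719.1, LNCaP PRMT5, PC3 METTL3 and PC3 PRMT5 met, with folds of 2.04 to 6.93. Among the regions of 1 list, LNCaP METTL3 had 3, LNCaP PRMT5 62, PC3 METTL3 36 and PC3 PRMT5 19. These lists have 26, 104, 47 and 60 peaks on MT and contigs. Peaks on the chromosomes were not merged in this way, so no share of all peaks stands beside these counts. Of the whole lists, at most 48.2%, 30.3%, 2.12% and 18.8% met any 1 other list, in the same order.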

How the data were processed

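Peak lists of 4 antibody libraries from 2 cell lines were used, and the 2 control libraries entered only through the calls. The submitters' processing notes name MACS2 2.1.0, Bowtie 1.1.1, Trimmomatic 0.33, bcl2fastq 2.17 and ChIPseeker, with the build hg38. Their settings, and how duplicates and multiply mapping reads were handled, were not given in the sources used here. For each peak the authors deposited its summit, a fold (a ratio over the control), the −log10 of p and of q, and a score, which is 10 times the −log10 q to within 1.

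Positions are 1-based hg38. Mitochondrial genes, nuclear mitochondrial pseudogenes (474) and ribosomal RNA units were taken from RefSeq (GRCh38.p14 gene table), which names no contigs here, so other contig peaks have no gene annotation, and no genome sequence was used here. Overlaps were counted with Python 3.11.15 and pandas 2.3.3 after a check on simulated lists, and intervals were computed with SciPy 1.17.1. Depth is unknown, so precision is limited by the number of peaks. The control region of MT and the 45S ends were taken from the gene table, and the 35 kb past each end was a fixed window.

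Regions were named by a rule: every MT peak, the 8 highest folds per list, contigs in 3 or 4 lists, the contig with most peaks of each list and the 6 shared regions of largest smaller fold per pair. The members and lists were chosen with earlier results of these data known.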

Additional observations from a re-analysis of the deposited data

How the results depend on the processing

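Of 70 alternative values, 42 stayed close to the reported one (shares and median folds within its interval, counts within 1.5 times) and 28 moved. Some of the 42 could not move, so the count is no measure of stability. LNCaP METTL3 has 199 peaks, so cutting lists to 199 left it whole. The 0 overlaps between the METTL3 lists could not rise under a stricter filter. A −log10 q of at least 3 moved none. With a fold of at least 5, the share on MT and contigs was 1.55% in LNCaP METTL3, 3.71% in LNCaP PRMT5, 0.429% in PC3 METTL3 and 0.555% in PC3 PRMT5, with 2, 31, 19 and 7 peaks on 2, 12, 17 and 4 contigs. The overlaps then fell to 2 (LNCaP METTL3 with LNCaP PRMT5), 0 (LNCaP METTL3 with PC3 PRMT5), 0 (LNCaP PRMT5 with PC3 METTL3), 2 (LNCaP PRMT5 with PC3 PRMT5) and 1 (PC3 METTL3 with PC3 PRMT5); the filter removes most peaks on MT and contigs by construction. With lists cut to 199 peaks, the shares were 21.1% in LNCaP PRMT5, 7.04% in PC3 METTL3 and 15.1% in PC3 PRMT5, on 8, 9 and 6 contigs. With 50% of both peaks required, LNCaP PRMT5 with PC3 METTL3 fell to 0 and PC3 METTL3 with PC3 PRMT5 to 2, where the median width of contig peaks is 388 bp in PC3 METTL3 and 226 bp in PC3 PRMT5; the cause was not tested. Leaving out the 5 short contigs was an alternative chosen after seeing the data. LNCaP PRMT5 then met PC3 METTL3 in 1 peak and PC3 METTL3 met PC3 PRMT5 in 4. LNCaP PRMT5 met PC3 PRMT5 in 28 peaks, against 30 with those contigs. The overlaps of LNCaP METTL3 could not change, because that list had 0 peaks on these contigs. Summits within 500 bp moved no overlap. With genes within 3 kb counted, 3 LNCaP METTL3 peaks on MT were near a gene, against 1 touching one. Genes of MT run from 577 to 16023, and no MT position is 3 kb from a gene, so that outcome was fixed. Gene annotation of contig peaks was not run. No paired analysis was possible because each group has 1 library, and for the same reason no replicate could be left out. Depth is unknown, so a missing peak, such as those of PC3 on MT, says only that none was called.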

Other observations

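Nuclear pseudogenes of mitochondrial genes outside chromosome 1 also had peaks. Of the 474 in the gene table, those of chromosome 1 included, LNCaP METTL3 peaks touched 5, LNCaP PRMT5 peaks 18, PC3 METTL3 peaks 2 and PC3 PRMT5 peaks 5. The lists hold 199, 1084, 7500 and 1721 peaks, and the share of all genes touched was not computed. Outside the chromosome 1 segment, 1, 11, 2 and 1 peaks lay over such pseudogenes. MTND6P4 on chromosome 5 had a peak in both LNCaP lists, with a fold of 3.46 for METTL3 and 7.0 for PRMT5, and its neighbours MTND5P11 and MTND4P12 had PRMT5 peaks of fold 9.14 and 3.34. MTCO1P40 on chromosome 17 had 2 LNCaP PRMT5 peaks, of fold 8.01 and 11.9. The 2 PC3 METTL3 peaks lay over MTND5P28 and MTND4P21, both on chromosome 2, with folds of 5.92 and 4.40. These pseudogenes were named after their values were seen.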
